A study of Homo sapiens with 2 samples.

Results

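The cytosolic ribosomal proteins are the structural proteins of the ribosomes that translate nuclear mRNAs. Their genes were chosen by symbol alone, as RPL or RPS followed by a number with an optional A, X or L, together with RPLP0, RPLP1, RPLP2 and RPSA. This gave 81 of the 58174 genes listed, of which 32 encode small subunit proteins and 49 encode large subunit proteins. RNA-seq was performed on PLC-8024, a human hepatocellular carcinoma (HCC) cell line. PLC-8024-CTR cells carried the control vector and PLC-8024-GDF1 cells overexpressed GDF1, a secreted ligand of the TGF-β superfamily, and the methods describe viral transduction followed by puromycin selection of stable cells. There was 1 library per condition, so the comparison asks which ribosomal protein genes differed in level between these libraries and has no replicate check. Poly(A)-selected RNA was sequenced, and the values are TPM, relative transcript abundances that account for transcript length and library total. The libraries are called the control and the GDF1 library, and pairs of values are given in that order.

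A ribosome consists of a small subunit, which reads the mRNA, and a large subunit, which joins amino acids. The ribosomal protein mRNAs are among the most abundant of a growing cell and belong to the TOP mRNAs, which begin with a C followed by a tract of pyrimidines. Through this terminal oligopyrimidine tract their translation responds to the kinase mTOR and the binding protein LARP1. Several ribosomal proteins also act outside the ribosome, for example by binding the ubiquitin ligase MDM2.

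The sequences around the annotated transcript starts were read from GRCh37 with GENCODE v44 positions, 15 bases on each side of the start of the canonical transcript, in 30-base windows written 5′ to 3′ on the strand of the gene. Capitals mark the longest run of a C followed by at least 5 further C or T. The first sequences belong to genes near the top of the order of changes described below. RPL23 and RPL18 encode large subunit proteins, and RPLP2 encodes a stalk protein. The windows were chr17:37009960-37009989 on the minus strand for RPL23, chr11:809952-809981 on the plus strand for RPLP2 and chr19:49122421-49122450 on the minus strand for RPL18.
RPL23: CTTTTTTCTTTTTTCCggcgttcaagatgt
RPLP2: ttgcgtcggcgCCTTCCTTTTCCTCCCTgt
RPL18: accccagcccgttCTCTCTTTCCggacctg

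Genes near the bottom of that order carried such a run as well, with RPL15 as an exception within its window. The RPL15 window ends in C and T letters, and the bases past its edge were not read. The windows of RPL26 (chr17:8286497-8286526, minus strand) and RPS13 (chr11:17099200-17099229, minus strand) held a run, and that of RPL15 (chr3:23958608-23958637, plus strand) held none.
RPL26: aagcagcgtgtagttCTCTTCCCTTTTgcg
RPS13: ttccactctcgCTCTCCTTTCgttgcctga
RPL15: cccaaaaggcattgtgggagtacagctctt

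Pairs of a gene and its paralog are shown because their levels lie far apart. RPL10 (chrX:153626703-153626732, plus strand), RPL39 (chrX:118925579-118925608, minus strand) and RPS27 (chr1:153963223-153963252, plus strand) held a run. Their paralogs RPL10L (chr14:47120970-47120999), RPL39L (chr3:186857270-186857299) and RPS27L (chr15:63449662-63449691), all on the minus strand, held none. RPL3 (chr22:39715614-39715643, minus strand) and its paralog RPL3L (chr16:2004676-2004705, minus strand), the pair with the widest gap in level, both held none.
RPL10: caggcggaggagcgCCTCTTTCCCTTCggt
RPL10L: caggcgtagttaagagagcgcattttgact
RPL39: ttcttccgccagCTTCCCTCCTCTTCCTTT
RPL39L: gcatccggggaaatcgcggtcttagcatcc
RPS27: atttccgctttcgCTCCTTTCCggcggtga
RPS27L: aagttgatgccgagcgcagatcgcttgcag
RPL3: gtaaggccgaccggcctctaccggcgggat
RPL3L: agtcctggccctgccactcgacctctggcg

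Over all ribosomal protein genes, 70 of the 81 windows (86.4%) held a run on the strand of the gene, against 4697 of the windows of 19536 protein-coding genes (24.0%). On the opposite strand the run was found in 9.88% of the ribosomal protein windows and 20.7% of all protein-coding windows. The letters CTTTCC, which are themselves such a run and so overlap it, occurred in 21 ribosomal protein windows (25.9%) and in 1.47% of all, and on the opposite strand in 0 and 0.937%. The annotated start base was a C in 62 of the 81 genes (76.5%) and in 10.7% of all protein-coding genes. Mitochondrial ribosomal protein genes, whose products serve the separate ribosome of the mitochondrion, held the run in 14 of 78 windows (17.9%). The 11 genes without a run include RPL10L, RPL15, RPL27, RPL3, RPL32, RPL39L, RPL3L, RPS26, RPS27L and RPS4X. The windows of RPL15 and RPL27 end in C and T letters, and a run that the window edge cut short was not counted. These are matches of letters at annotated starts, which may differ from the starts used in PLC-8024 cells.

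The targeted gene was checked before the ribosomal protein genes. GDF1 itself had 2.1 and 4.64 TPM, and CERS1, which overlaps it in the annotation, had 13.3 and 9612 TPM, so reads of the pair may be divided between them. The TPM values summed to 999990 and 999995, so the sequencing depth is unknown and no counting interval can be given. A level of 1 TPM or more was found for 14138 and 13658 genes. Of 8 hepatocyte markers, 8 and 7 reached 1 TPM, with sums of 9376 and 6109 TPM, and of 4 epithelial markers 3 and 2 did. CDH1 was listed at 10.4 and 0.33 TPM, whereas EPCAM was under 1 TPM in both. Of 5 fibroblast, 4 endothelial and 5 leukocyte markers, 1, 1 and 2 reached 1 TPM, with sums of 3.43 and 2.09, 23.5 and 22.4, and 331 and 227 TPM. Of the markers in these lists, COL1A2, DCN, VWF, KDR and PTPRC were at 0.0001 TPM, the value that stands for 0, in both libraries. Other markers of these lists were listed above 1 TPM, namely LYZ at 298 and 213.5 TPM, CD68 at 33.1 and 13.2 TPM, PECAM1 at 23.2 and 22.2 TPM and COL3A1 at 3.22 and 1.23 TPM, and their part in the results was not tested. In bulk RNA a change in the share of a cell type and a change in RNA per cell cannot be told apart.

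All 81 ribosomal protein genes reached 1 TPM in both libraries. Together they held 162225 TPM, or 16.2% of the total, in PLC-8024-CTR and 173874 TPM, or 17.4%, in PLC-8024-GDF1, a ratio of 1.07. Among the 100 genes with the highest TPM, 46 encoded ribosomal proteins in PLC-8024-CTR and 44 in PLC-8024-GDF1. The small subunit genes summed to 75019 and 77017 TPM (7.50% and 7.70%), and the large subunit genes to 87205 and 96856 TPM (8.72% and 9.69%). The larger part of the difference therefore lay in the large subunit. The mitochondrial genome, the other large block of abundant transcripts, held 16.3% and 14.9% of the total.

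Individual ribosomal protein mRNAs were not equally abundant. RPS2, which lies at the mRNA entry region of the small subunit, had the highest level in both libraries, at 7652 TPM in the control and 6690 TPM in the GDF1 library. RPS12 followed in both, at 5874 and 5921 TPM. These small subunit genes kept their places, but the next place was not shared. RPS18 came next in PLC-8024-CTR at 4926 TPM and stood lower in the order of PLC-8024-GDF1, at 4014 TPM. RPS27, a zinc finger protein of the small subunit, was listed at 3888 and 5054 TPM. In the large subunit, RPL41, which encodes a very short peptide, was listed at 4085 and 4475 TPM. RPL27 had 3993 and 4156 TPM, and RPL35 had 3789.9 and 4509 TPM. The acidic stalk genes RPLP1 and RPLP2 were also among the 10 genes with the highest mean. Without the 4 paralogs, levels of the remaining 77 genes spanned 281 to 7652 TPM in PLC-8024-CTR and 216 to 6690.0 TPM in PLC-8024-GDF1, and RPL14, a large subunit gene, was the lowest in both. The canonical transcript of RPL14 is 7136 bases long in the annotation, and the part of transcript length in its low TPM was not tested. Across these 77 genes, log2 levels in the 2 libraries had a Pearson r of 0.95 and a Spearman rho of 0.96. This is a description across genes, which are not independent replicates.

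**Figure D1:**
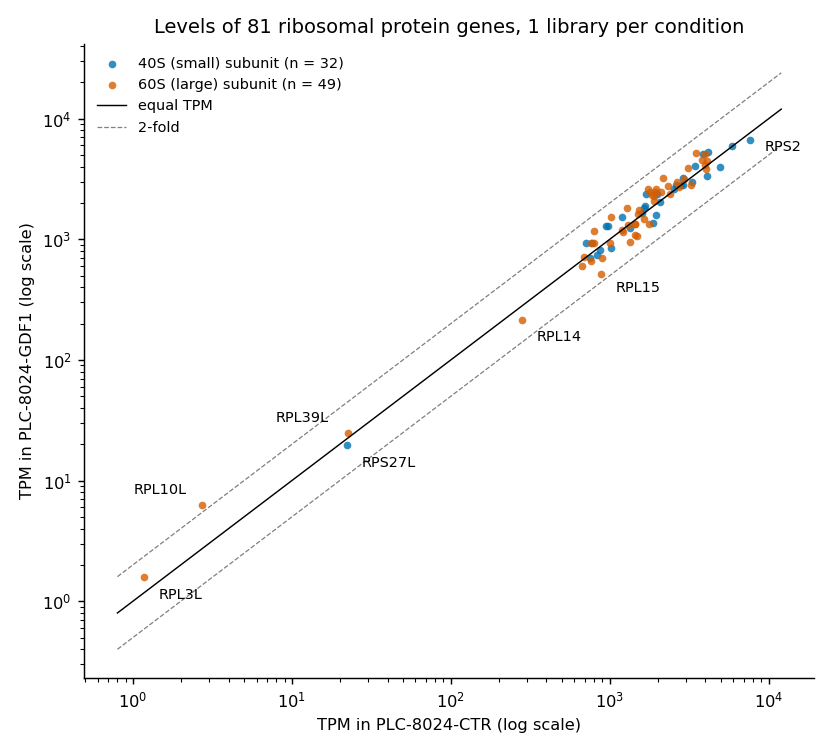
TPM of each of the 81 ribosomal protein genes in PLC-8024-CTR (x axis, log scale) against PLC-8024-GDF1 (y axis, log scale), 1 point per gene, coloured by subunit, with solid and dashed lines at equal TPM and at a 2-fold ratio. The 77 genes other than paralogs form a cloud from about RPL14 (281 and 216 TPM) to RPS2 (7652 and 6690.0 TPM), and among all points RPL10L (2.74 and 6.28 TPM) alone lies outside the dashed lines, which are drawn without a pseudocount.

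Changes are given as log2 of (TPM + 1) in PLC-8024-GDF1 over (TPM + 1) in PLC-8024-CTR, a scale that understates the change of low genes. Of the 81 ribosomal protein genes, 46 were higher and 35 (43.2%) lower in PLC-8024-GDF1, with a median log2 change of 0.09 and a range from −0.77 to 0.96. The number past 2-fold was 0. Among the 14929 genes that reached 1 TPM in either library, 14.4% passed 2-fold and 63.3% were lower, with a median of −0.20. Highly expressed genes form the closer background. Among the 617 other genes with a mean of at least 200 TPM, 8.91% passed 2-fold, 42.6% were lower and the median was 0.10. The share of lower genes and the median of the ribosomal protein genes were thus near this background. The middle 50% of the ribosomal protein genes lay between −0.12 and 0.28, against −0.23 and 0.41 for these other genes. When PLC-8024-GDF1 was multiplied by 1.15 to bring the median log2 ratio of −0.21 over genes with at least 5 TPM to 0, 67 ribosomal protein genes were higher and 14 lower, with a median of 0.30. Rescaling raises the value of every abundant gene or list by the size of this shift, so that negative values smaller than it become positive. The other 617 abundant genes moved in the same way, to 453 higher and 164 lower with a median of 0.31, so on this scale as well the ribosomal protein genes were near that background.

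**Figure D2:**
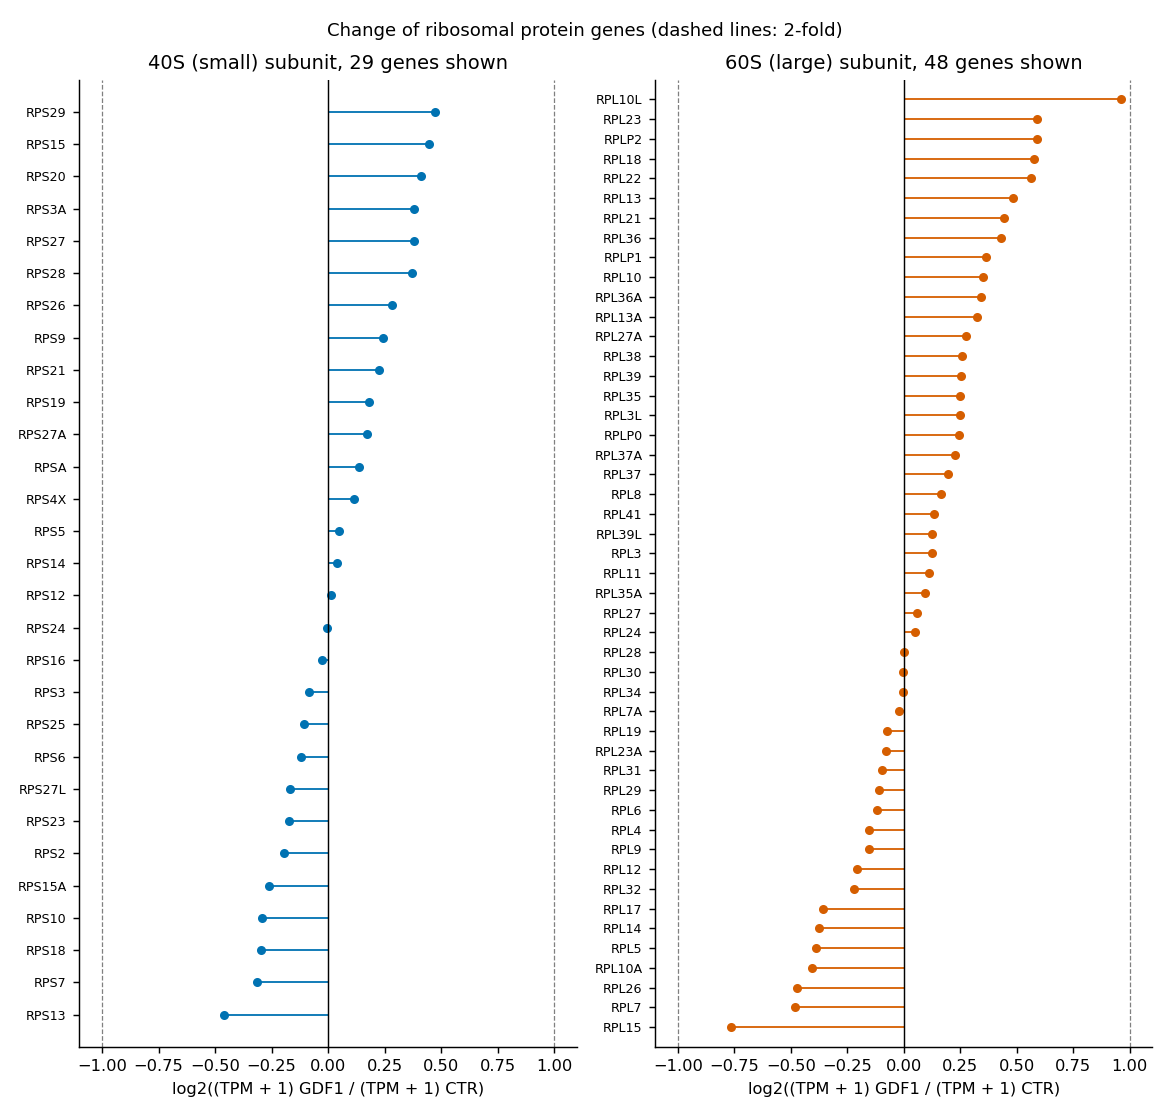
Log2 change of (TPM + 1), PLC-8024-GDF1 over PLC-8024-CTR (x axis), for 77 of the 81 ribosomal protein genes ordered by their change (y axis), with small subunit genes on the left and large subunit genes on the right; each point is the ratio of 1 library to 1 library, and dashed lines mark 2-fold. Values run from −0.46 (RPS13) to 0.47 (RPS29) in the small subunit and from −0.77 (RPL15) to 0.96 (RPL10L) in the large subunit.

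In the small subunit, 17 genes were higher and 15 lower. The share lower was 46.9%, near the 42.6% of the other genes with a mean of at least 200 TPM. The median log2 change of the small subunit genes was 0.03. RPS29, a small zinc-binding protein, had the highest value, at 1699.8 and 2358 TPM (0.47). RPS15 followed with 946 and 1287 TPM (0.44). RPS13 was at the other end, at 1869 TPM in the control and 1356 TPM in the GDF1 library (−0.46). Values on both sides of 0 thus occurred within the small subunit. RPSA, which encodes a small subunit protein also known as the laminin receptor, was listed at 1636 and 1802 TPM (0.14). RPS6, whose protein is phosphorylated by the S6 kinases, was listed at 1348 and 1242 TPM (−0.12, and 0.09 after rescaling).

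In the large subunit, 29 genes were higher and 20 lower. The share lower was 40.8%, near the 42.6% of the other genes with a mean of at least 200 TPM. The median of the large subunit genes was 0.12, against 0.10 for those other genes. Apart from RPL10L, the highest values included those of RPL23, RPLP2, RPL18 and RPL22. RPL23 was listed at 1022 TPM in the control and 1540.2 TPM in the GDF1 library, with a log2 change of 0.59. RPL18 was listed at 1750.2 and 2608 TPM (0.57). RPL22, which also binds RNA outside the ribosome, was listed at 799.7 and 1182 TPM (0.56). These genes lay 1.48-fold to 1.51-fold higher in PLC-8024-GDF1. At the other end, RPL15 was listed at 881 and 517 TPM (−0.77), the lowest value of all 81 genes. RPL7 was listed at 1339 and 958 TPM (−0.48), and RPL26 at 1480.0 and 1066 TPM (−0.47). RPL10A, which had 1445 and 1091 TPM (−0.40), and RPL5, which had 1765 and 1348 TPM (−0.39), completed the 6 lowest together with RPS13. RPL15, RPL7, RPL26, RPS13, RPL10A and RPL5 were also lower after rescaling, with −0.56, −0.28, −0.27, −0.26, −0.20 and −0.18. With the GC trend of all genes removed, RPL15 stood at −0.49, RPL10A at −0.33, RPS13 at −0.30 and RPL26 at −0.17, whereas RPL7 stood at −0.07 and RPL5 turned to 0.06.

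The stalk of the large subunit recruits the GTPases of translation and is built from RPLP0, which binds the ribosomal RNA, and from RPLP1 and RPLP2. All 3 were higher in PLC-8024-GDF1, as were 354 of the 617 other genes with a mean of at least 200 TPM. RPLP0 was listed at 2099 and 2486 TPM (0.24), RPLP1 at 3949 and 5086 TPM (0.36), and RPLP2 at 3471 and 5224 TPM (0.59). Their sum was 9519 TPM in the control and 12796 TPM in the GDF1 library, so the stalk made up 0.952% and 1.28% of all TPM. The ratio was 1.34, against 1.03 for the sum of the 617 other genes. RPLP0 and RPLP2 lie in the GC-rich group described below, which had a median of 0.22, and RPLP1 in the middle group, with 0.11.

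The 4 paralogs with a tissue-restricted or minor role lay far below the genes they resemble. RPL3L, known from heart and skeletal muscle, was listed at 1.17 and 1.58 TPM, against 1907.5 and 2078 TPM for RPL3. RPL10L, known from the testis, was listed at 2.74 and 6.28 TPM, a log2 change of 0.96 with the pseudocount of 1 and 1.20 as a plain ratio. RPL10 was listed at 1939 and 2475 TPM (0.35). RPL39L had 22.7 and 24.8 TPM against 2323 and 2769.6 TPM for RPL39. RPS27L had 22.3 and 19.8 TPM against 3888 and 5054 TPM for RPS27. RPL10L was thus the gene whose place past or within 2-fold depended on the pseudocount, at a level of a few TPM whose depth is unknown.

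Diamond-Blackfan anaemia is an inherited failure of red cell production caused by loss of a copy of a ribosomal protein gene, and 18 of the 81 genes are on that list. Of these, 10 were higher, 8 lower and 0 past 2-fold, with a median of 0.08. The share lower was 44.4%, against 63.3% of all genes and 42.6% of the other highly expressed genes. RPS19, the most often affected gene in the disease, was listed at 2871 and 3251 TPM (0.18). RPL11 was listed at 2919.8 and 3153 TPM (0.11). RPL35A was listed at 1515 and 1615 TPM (0.09), and RPS26 at 771 and 939 TPM (0.28). RPS24 had 2803 and 2796 TPM (−0.0040), and lay at 0.20 after rescaling. RPL15 and RPL18, also on this list, stood near opposite ends of the order.

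Among 8 ribosomal proteins known to act with MDM2, 5 were lower (62.5%) and 3 higher. The share lower was 63.3% among all genes and 42.6% among the other highly expressed genes. The number past 2-fold was 0. The median of −0.13 became 0.08 after rescaling, against −0.02 for all genes and 0.31 for the other highly expressed genes. RPL5 and RPL11, which bind MDM2 as a complex with an RNA of the large subunit, lay on either side of 0, at −0.39 and 0.11, although RPL5 was above 0 with the GC trend removed. RPL23 had the highest value, 0.59. RPL26 had the lowest, −0.47. RPS7 was listed at 1966 and 1579 TPM (−0.32, and 0.0073 with the GC trend removed), RPS14 at 2537 and 2609 TPM (0.04), and RPS3 at 864 and 814 TPM (−0.09, and above 0 after rescaling). MDM2 itself was listed at 5.45 and 4.41 TPM, and CDKN1A, an inhibitor of the cell cycle, at 35.0 and 33.3 TPM.

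Ribosomal protein genes do not act alone, and genes that build or regulate ribosomes were examined with lists from background knowledge. Of 59 ribosome biogenesis factors, 49 were lower in PLC-8024-GDF1 and 10 higher. Of these, 8 passed 2-fold, all lower, and the median was −0.52, against 0.09 for the ribosomal protein genes and −0.20 for all genes. The share of lower genes was 83.1%, against 63.3% of all genes, whereas the share past 2-fold, 13.6%, was near the 14.4% of all genes. DDX21, a nucleolar RNA helicase, was listed at 17.4 and 4.36 TPM (−1.78). DKC1, the pseudouridine synthase of ribosomal RNA, was listed at 35.9 and 11.5 TPM (−1.57). WDR75, RIOK1, WDR12, MPHOSPH10, LTV1 and RRS1 had values from −1.28 to −1.13. NPM1 and NCL, the abundant nucleolar proteins nucleophosmin and nucleolin, were listed at 966 and 577 TPM (−0.74) and at 170.4 and 90.2 TPM (−0.91). DDX10 had the highest value, at 11.4 and 17.1 TPM (0.55). After rescaling the median of the 59 factors was −0.33, with 41 lower and 6 past 2-fold. Among the 14929 genes that reached 1 TPM the rescaled median was −0.02, with 7700 lower. Of these, 1040 were past 2-fold upwards and 1022 downwards.

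Of 19 genes of RNA polymerase I, which transcribes ribosomal RNA, and its factors, 17 were lower (89.5%, against 63.3% of all genes) and 2 higher. Their median of −0.28 became −0.08, with 12 lower, after rescaling. On that scale 7700 of the 14929 genes that reached 1 TPM were lower, with a median of −0.02. The share of the RNA polymerase I list past 2-fold was 5.26% before rescaling, against 14.4% of all genes. TAF1B was the 1 gene past 2-fold, at 2.75 and 0.59 TPM (−1.24). POLR2L, a polypeptide that the nuclear RNA polymerases share, was listed at 598 and 790.3 TPM (0.40). Of 23 measured regulators of ribosomal protein mRNAs, 17 were lower and 6 higher, with 3 past 2-fold, all lower, and a median of −0.34 (−0.15 after rescaling, with 14 lower). The shares, 73.9% lower and 13.0% past 2-fold, were near the 63.3% and 14.4% of all genes. Those past 2-fold were LARP1B (12.7 and 4.82 TPM), RPS6KA3 (15.5 and 6.23 TPM) and GABPA (3.32 and 0.949 TPM). MTOR was listed at 28.1 and 15.04 TPM (−0.86) and LARP1 at 43.2 and 29.2 TPM (−0.55). MYC, an activator of ribosomal protein genes, was listed at 3.76 and 3.94 TPM (0.05). EIF4EBP1, an mTOR substrate, had the highest value of this list, at 779 and 895 TPM (0.20). Of 16 genes of ribosome quality control and the nucleolar stress response, 15 were lower (93.8%, against 63.3% of all genes), with 0 past 2-fold and the lowest value, −0.87, in GTPBP2. The median of this list was −0.26 and became −0.085 after rescaling, with 13 lower.

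Genes on a list of other TOP mRNAs, which includes noncoding RNA genes such as GAS5 and SNHG1, were divided. Annotated starts were read for the 22 protein-coding entries only, and 19 of these windows held the run. Of the 28 genes on this list, 12 were higher and 16 lower. Their median level was 245 and 274 TPM. The share lower was 57.1%, against 63.3% of all genes and 42.6% of the 617 other genes with a mean of at least 200 TPM. Some genes of the list are among these 617. The median change of the list was −0.09, against −0.20 and 0.10. After rescaling it was 0.11, against −0.02 and 0.31. The share of the list past 2-fold was 7.14%, against 14.4% and 8.91%. EIF3F, a subunit of a translation initiation factor, was the 1 gene past 2-fold upwards, at 48.5 and 154.8 TPM (1.65), and EIF4A2, an RNA helicase of initiation, the 1 past it downwards, at 70.1 and 22.6 TPM (−1.59). The elongation factors EEF1A1 (3682 and 2531 TPM) and EEF2 (1508 and 1034 TPM) each had a log2 change of −0.54. The sum over the list was 14781 TPM in the control and 12430 TPM in the GDF1 library, while that of the ribosomal protein genes was higher in PLC-8024-GDF1. Medians of the ribosomal protein genes were close with and without a tract match. The 70 with a run had a median of 0.07 (39 higher, 31 lower), and the 11 without had a median of 0.12 (7 higher, 4 lower).

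Subunit proteins whose symbols do not follow the rule were placed beside the others. FAU, which encodes a small subunit protein fused to a ubiquitin-like domain, was listed at 465 and 494 TPM (0.09). RPS27A, which follows the rule and encodes a small subunit protein fused to ubiquitin, was listed at 1664 and 1874 TPM (0.17). RPL36AL had 490.2 and 663 TPM (0.43), and RPL7L1, a gene related to RPL7, had 20.02 and 4.97 TPM (−1.82), the only value past 2-fold among the 6 measured genes outside the rule. RPL22L1 and RPL26L1, paralogs of RPL22 and RPL26, had values of 0.20 and −0.39, with the sign of the gene they resemble. Of the 4 paralogs given earlier, RPL3L, RPL10L and RPL39L also shared the sign of their gene, whereas RPS27L (−0.17) and RPS27 (0.38) did not. The 78 mitochondrial ribosomal protein genes had a median of −0.14 (0.07 after rescaling, against −0.02 for all genes). Of these 78, 53 were lower, 25 higher and 4 past 2-fold, all lower. The shares, 67.9% lower and 5.13% past 2-fold, stand against 63.3% and 14.4% of all genes. Their sum was 7638 and 7742 TPM.

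Values among the ribosomal protein genes moved with base composition and chromosome. The genes were split into a low, a middle and a high group of 27 genes each by the GC content of the canonical transcript. In the low group, with 40.1% to 45.5% GC, 10 genes were higher and 17 lower, with a median log2 change of −0.09. The middle group (45.9% to 51.8%) had 18 higher and 9 lower, with a median of 0.11. The high group (51.9% to 63.6%) had the same counts and a median of 0.22. After rescaling the 3 medians were 0.12, 0.32 and 0.39. Other genes with a mean of at least 200 TPM in these GC ranges had medians of −0.17, −0.09 and 0.15, so the order of the medians was shared. Across the 81 genes the change had a Pearson r of 0.32 and a Spearman rho of 0.28 with GC content, and across 593 of the other highly expressed genes 0.26 and 0.31. With transcript length, r was −0.10. These are descriptions across genes of the same 2 libraries, and the part of base composition in the changes was not tested.

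Chromosome 19 holds 12 of the ribosomal protein genes, more than any other chromosome. Of these 12, 10 were higher and 2 lower, with a median of 0.33, and their sum was 25923 and 31822 TPM, a ratio of 1.23. They include RPL18, RPS15, RPS19 and RPS28. The 69 genes on other chromosomes had a median of 0.04, with 36 higher and 33 lower. The share lower was 16.7% of the 12 and 47.8% of the 69. Other genes showed a difference of the same sign. The 1127 other genes on chromosome 19 had a median of 0.05, with 615 higher and 512 lower (45.4%). The 13432 on other chromosomes had a median of −0.23, with 65.1% lower. All 12 ribosomal protein genes of chromosome 19 lie in the high GC group. The 15 genes of that group on other chromosomes had a median of 0.12, with 8 higher and 7 lower. Base composition and chromosome cannot be told apart for these 12 genes. On chromosome X, RPL10, RPL36A, RPL39 and RPS4X were all higher (4 of 4), with values from 0.12 to 0.35. The 2 genes on chromosome 14 were also both higher. Of the 617 other genes with a mean of at least 200 TPM, 354 were higher. Other genes of chromosome X were not examined, so these small groups have no background of their own.

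Ribosomal protein genes have many processed pseudogenes, and reads may be divided between a gene and its copies. The deposited values include 953 entries named as pseudogenes of the ribosomal protein genes, and 94 of them reached 1 TPM. Together they held 5502 TPM in the control and 7330.4 TPM in the GDF1 library. For 8 genes the pseudogenes took over 10% of the joint TPM in at least 1 library. RPS28, with 1191 and 1541 TPM, stood below its pseudogene RPS28P7, with 1954 and 3158 TPM, so its pseudogenes took 62.1% and 67.2%. RPL10 had 1939 and 2475 TPM against 955 and 1219 TPM for RPL10P9. RPL9 had 669 and 601 TPM against 420.1 and 520.3 TPM for RPL9P9. When all pseudogenes were added to their genes, the log2 change of RPS28 was 0.58 in place of 0.37, and that of RPL9 was 0.05 in place of −0.15, the 1 change of sign, and the value of RPL9 alone was also 0.05 after rescaling. The median over the 81 genes was 0.09, with 47 higher and 34 lower. Values of RPS28, RPL9, RPL10, RPL23A, RPL21, RPL7, RPS26 and RPS3A are therefore uncertain in level.

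**Figure D3:**
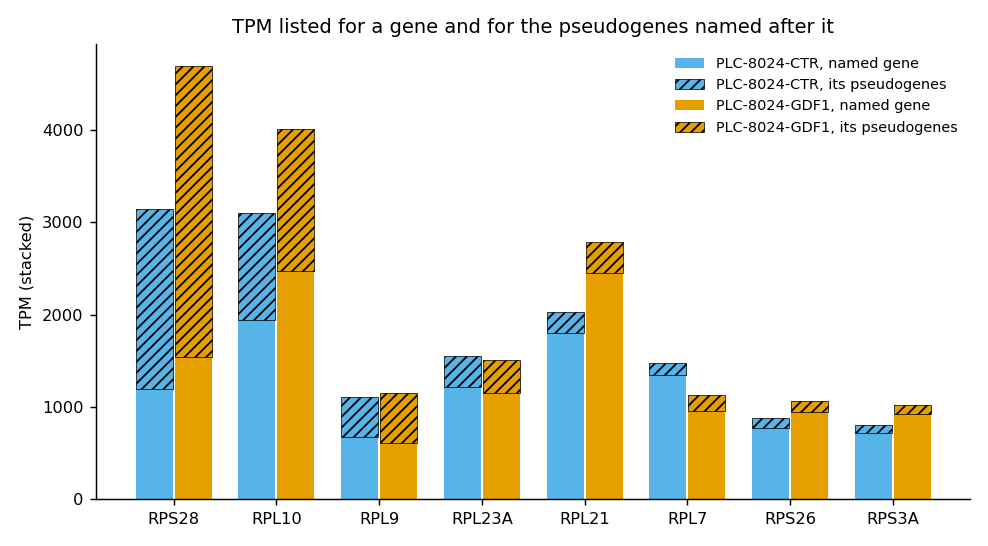
TPM (y axis, stacked bars from 0) of the 8 ribosomal protein genes whose pseudogenes held over 10% of the joint TPM in at least 1 library, for PLC-8024-CTR and PLC-8024-GDF1, with plain bars for the gene and hatched bars for the pseudogenes named after it. For RPS28 the hatched part is larger than the plain part in both libraries (62.1% and 67.2%), and for RPL10 and RPL9 it is between 37.5% and 47.6%.

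Sequence sharing was also measured in the transcripts themselves. Of all 100-base windows of a gene's canonical transcript, a median of 3.74% also occurred in a transcript of another gene. Matches had to be exact and were taken over the whole annotated transcript, so this share does not measure shared reads. It was 12.0% in RPL10 and 9.02% in RPS28, whose pseudogenes took 62.1% and 67.2% of the joint TPM. In 25 genes the share was 0, and in 12 it was over 50%, with the highest in RPL17 (95.1%) and RPS10 (89.4%). Both of these have an annotated readthrough gene. RPL17 was listed at 891 and 695 TPM (−0.36), and RPL17-C18orf32 at 24.3 and 36.8 TPM. RPS10 was listed at 4110.4 and 3356 TPM (−0.29), and RPS10-NUDT3 at 26.7 and 44.3 TPM. RPL36A was listed at 1839 and 2330.4 TPM (0.34), and RPL36A-HNRNPH2 at 43.8 and 1.93 TPM. Adding the readthrough gene gave −0.32, −0.28 and 0.31, with no change of sign. The 12 genes with over 50% shared windows had a median of −0.13, and the other 69 a median of 0.11.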

How the data were processed

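RNA-seq was performed on 1 library of PLC-8024-CTR and 1 library of PLC-8024-GDF1 cells. According to the methods and the submitters' processing notes, the authors trimmed reads (Trimmomatic 0.36, FastQC 0.11.2), aligned them to hg19 (HISAT2 2.1.0) and quantified them (StringTie 1.3.3b), with bedtools 2.26.0 also named. The deposited values are TPM per gene, which are normalized to transcript length and library total and keep no read depth. The column is headed as a mean and was read as the value of the 1 library. The methods name a RefSeq annotation while the values carry Ensembl identifiers, so the annotation behind the TPM, on which the split between genes and pseudogenes depends, was not settled. No counts were used. A value of 0.0001 stands for 0.

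Log2 changes used a pseudocount of 1 and genes that reached 1 TPM in either library, and a change past 2-fold was counted without a test. The genes, lists and alternatives were chosen with earlier results of these data known. Positions and canonical transcripts were from GENCODE v44 on GRCh37, which held 55726 of the 58174 identifiers and all 81 genes. The GC trend was a lowess fit over genes that reached 1 TPM in either library, with a span of 0.3. It used the GC content of the longest transcript, whereas the GC groups used the canonical transcript. The scripts ran in Python 3.11.15 with pandas 2.3.3 and numpy 2.4.6 (both also for correlations), statsmodels 0.14.6 (lowess), scipy 1.17.1 and matplotlib 3.10.9 (plots). They were tested on simulated data.

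The genes named were GDF1 and CERS1, the 10 ribosomal protein genes with the highest mean TPM, the 6 with the highest and the 6 with the lowest change, any past 2-fold, the stalk genes, RPSA, the 4 paralogs with the genes they resemble, genes with a readthrough gene, the MDM2 and Diamond-Blackfan lists, and from every other list the genes past 2-fold and both extremes. RPL9, RPL21, RPL23A, RPL32, RPS3A, RPS4X, RPS6, RPS15, RPS27A, NPM1, NCL, EEF1A1, EEF2, MTOR, LARP1, MYC, MDM2, CDKN1A, RPL22L1, RPL26L1 and the pseudogenes fall outside this rule and were chosen after their values were seen. The alternatives were other pseudocounts, minimums, scalings and totals, a GC correction, overlapping genes or pseudogenes added, and paralogs or short transcripts left out. Some single-gene values are not reported here.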

Additional observations from a re-analysis of the deposited data

How the results depend on the processing

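No paired analysis was possible because there was a single library for each condition. The number of ribosomal protein genes past 2-fold, 0 with the pseudocount of 1, was 1 with a pseudocount of 0.1, with the plain TPM ratio, with TPM rescaled and with the GC trend removed, and that gene was RPL10L each time. The median log2 change of 0.09 was 0.30 with TPM rescaled and 0.27 with the GC trend removed, and the number of genes lower in PLC-8024-GDF1, 35, was 14 and 12. Rescaling turned 21 of the 81 genes from lower to higher and removing the GC trend turned 23, with none (0) turned the other way in either case. The GC trend was fitted over all genes, so removing it also takes out their overall downward shift, which rescaling removes. These settings are therefore not independent, and the turned signs are not a measure of base composition alone. Among the genes turned by rescaling, RPS6 came to 0.089, RPL9 to 0.053, RPS2 to 0.013, RPS24 to 0.20, RPS27L to 0.031 and RPS3 to 0.12. Removing the GC trend also turned RPL5 to 0.055 and RPS7 to 0.0073. For RPL5 and RPS7 the longest transcript, which the trend used, has a lower GC content than the canonical transcript. Leaving out the 4 paralogs lowered the SD of log2 levels among the genes from 1.93 to 0.89 in PLC-8024-CTR and from 1.91 to 0.96 in PLC-8024-GDF1, by construction. The share of all TPM ranged from 16.2% to 19.4% in PLC-8024-CTR and from 17.4% to 20.4% in PLC-8024-GDF1 over the totals tried. Adding pseudogenes and leaving out the genes with a canonical transcript under 600 bases were chosen after seeing the data, and gave medians of 0.09 and 0.11. With 1 library per condition and unknown depth, no difference between the libraries can be set against replicate or counting error.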
